A study of Mus musculus with 14 samples.

Results

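Ductular reaction is the growth of small bile ducts at the edge of the portal tract of an injured liver, and here 7 of 14 mouse liver RNA-seq libraries were divided by their bile duct transcripts. The 7 are those titled MASH (n = 3) and C18:1 (n = 4). They were chosen as high or low by their measured transcripts of Krt7, Krt19 and Epcam, which put 3 libraries in a duct-high class (MASH replicate 4 and C18:1 replicates 1 and 3). The other 4 formed a duct-low class (MASH replicates 2 and 3 and C18:1 replicates 2 and 4). Values of a class are listed in these orders throughout. Because the classes were selected on measured values, every difference between them is a description, and no test is given for any of them. The division is not one that the study made.

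All mice were male C57BL6/J and entered the study at 8 weeks of age. Mice of the MASH, C18:1 and C18:1-leucine titles ate a MASH diet, which brings on metabolic dysfunction-associated steatohepatitis, for 16 weeks. Treatment then lasted another 6 weeks on that diet. C18:1 mice received C18:1, which the titles call OA, and C18:1-leucine mice (n = 3) received C18:1-leucine, which the titles call OAL. The MASH title does not say whether vehicle was given, and doses are not given in the labels. Chow mice (n = 4) ate standard chow, and what they received in the treatment weeks is not given. The treatment tag of C18:1 replicate 1 names the diet alone, as the tags of the MASH libraries do, and that of C18:1-leucine replicate 1 names C18:1. Titles were followed, and the labels do not say whether each library came from its own mouse. The 7 libraries held 33821874 to 50082542 counts each, and the 14 held 33821874 to 51107248. No pair of libraries of a group agreed within counting noise. In bulk liver RNA, fewer cells of a type and less RNA per cell cannot be told apart.

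Cholangiocytes line the bile ducts, carry keratins 7 and 19 and the adhesion molecule EpCAM, and add bicarbonate-rich fluid to bile. In chronic injury they proliferate together with portal fibroblasts and matrix, and they make signals that act on stellate cells, the main source of scar collagen. Hepatocytes make plasma proteins, urea and bile acids, and Kupffer cells are the resident macrophages of the sinusoids.

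The level of Krt7, a keratin of bile duct cells (chr15:101411043-101430313 on the plus strand of GRCm38), was 3.81, 5.29 and 8.02 CPM in duct-high libraries, against 0.808, 1.33, 1.45 and 1.83 CPM in duct-low libraries. CPM is a gene's share of the scaled library total in the usual unit of that name, not per gene length, so levels of different genes cannot be compared. Krt19, the other ductal keratin, stood at 4.79, 6.06 and 10.5 CPM in duct-high and 0.994, 1.53, 1.22 and 2.11 CPM in duct-low libraries. Epcam, the surface adhesion molecule, stood at 12.1, 14.1 and 12.7 CPM in duct-high and 2.19, 1.72, 3.21 and 4.09 CPM in duct-low libraries. All 3 markers therefore kept the classes apart, which is how the libraries were chosen. The 3 summed to 20.7, 25.4 and 31.2 CPM in duct-high and 4.0, 4.58, 5.88 and 8.02 CPM in duct-low libraries. The lowest duct-high library was MASH replicate 4 and the highest duct-low library was C18:1 replicate 4, the closest pair on the 2 sides of the gap. The counts behind these 3 genes ran from 39 to 707 in a library.

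In the libraries outside the rule, the same sum was 3.52, 5.45 and 16.3 CPM in C18:1-leucine replicates 1, 2 and 4 and 7.22, 2.55, 2.29 and 3.62 CPM in the 4 chow libraries. C18:1-leucine replicate 4 thus lay between the classes, and the other libraries were in or below the duct-low range. The first chow library owed its place at the top of its group to Krt19, at 4.11, 0.534, 0.529 and 0.824 CPM in the 4 chow libraries. Of 20 bile duct marker genes, 18 were higher in every duct-high library than in every chow library, and 4 were higher in every duct-low library than in every chow library. Of all 15674 genes that passed the low count filter, 29.4% were above chow in this way in duct-high and 21.7% in duct-low libraries. Below it were 26.9% and 17.0%. The 20 markers include Krt7, Krt19 and Epcam, on which the classes were chosen, so the choice bears on the 18 and the 4.

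**Figure D1:**
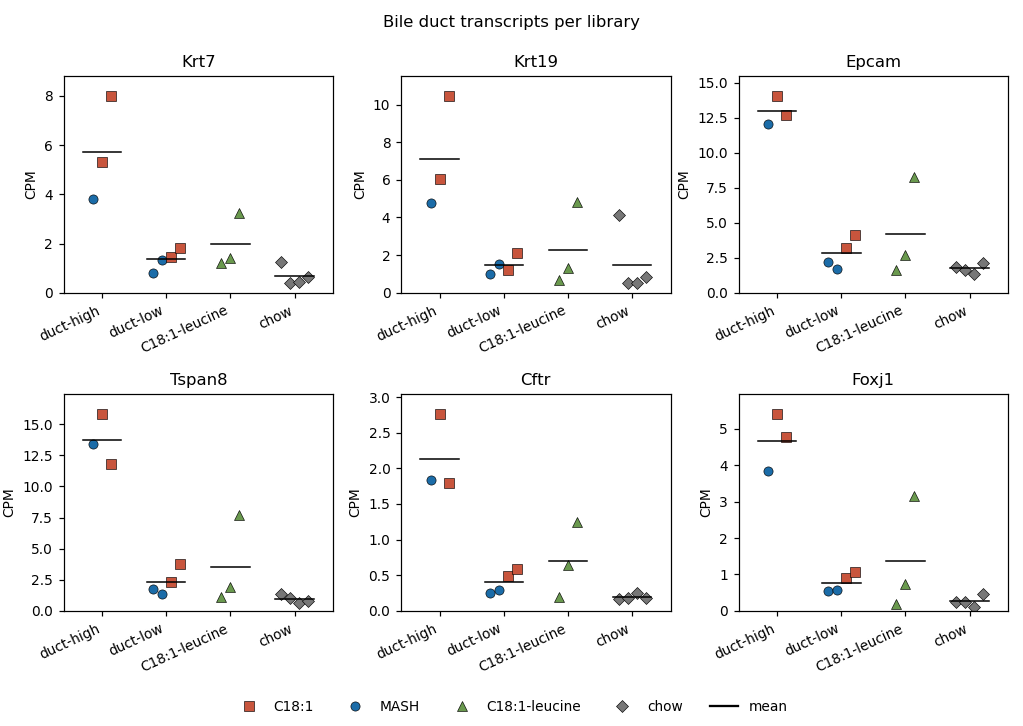
Level in CPM (y axis) of Krt7, Krt19, Epcam, Tspan8, Cftr and the motile cilium gene Foxj1 in each of 14 libraries. Each symbol is 1 library, its shape gives the title group and the bar is the mean of a column. Duct-high libraries lie above duct-low libraries for every gene shown, and 1 C18:1-leucine library lies above the other C18:1-leucine libraries.

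Of 15674 genes that passed the low count filter, 1505 (9.60%) were higher in all 3 duct-high than in all 4 duct-low libraries, and 1336 (8.52%) were lower in all 3. Such genes are called separated below. With a minimum of a 2-fold difference between class means on the log2 CPM scale, 583 genes (3.72%) were separated and higher and 47 (0.300%) were separated and lower. The 47 became 80 without C18:1 replicate 1, 103 without C18:1 replicate 3 and 80 without C18:1 replicate 4. The 583 were mostly sparse, as 414 had a duct-low mean below 1 CPM, and 54 reached a duct-high mean of 10 CPM. Among duct-high libraries, C18:1 replicate 1 held the highest value of 286 of the 583 genes, C18:1 replicate 3 of 247 and MASH replicate 4 of 50. Among duct-low libraries, C18:1 replicate 4 held the highest value of 422 (72.4%), against 31.6% of all 15674 genes, so the library nearest to the gap in the markers was also nearest in most of these genes.

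Of the 583 higher genes, 416 were at least 2-fold different within both MASH and C18:1, as were 27 of the 47 lower genes. These genes were picked over the same libraries, so their direction within each title group was fixed by the choice. The duct-high class holds 1 MASH and 2 C18:1 libraries and the duct-low class 2 of each, so treatment is not balanced between them. Relative to chow, 543 of the 583 genes had every duct-high library above every chow library. In 183, every duct-low library was above every chow library, beside the 29.4% and 21.7% of all genes. The 583 were picked for high values in duct-high and low values in duct-low libraries, so the choice bears on both counts.

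Of 20 of 20 bile duct markers that passed the filter, 17 were separated and higher and none lower, with a median difference of 2.02 (log2 CPM, duct-high minus duct-low) against -0.02 over all genes kept. The list holds Krt7, Krt19 and Epcam, on which the classes were chosen, and without them 14 of 17 were separated and higher, at a median of 1.97. Within the title groups the median was 1.96 in MASH and 1.74 in C18:1. The level of Tspan8, a tetraspanin of secretory epithelium, was 13.4, 15.8 and 11.8 CPM in duct-high and 1.76, 1.33, 2.3 and 3.76 CPM in duct-low libraries. Sctr, the receptor for the hormone secretin that sets off ductal secretion, stood at 1.04, 1.18 and 0.917 CPM in duct-high and 0.124, 0.0458, 0.199 and 0.196 CPM in duct-low libraries. Their differences were 2.65 and 2.64, with a gap in each between the lowest duct-high and the highest duct-low library. Sctr passed the filter through the duct-high libraries and had few counts in the duct-low ones, so the size of its difference is uncertain. The epithelial transcription factor Ehf (2.29) and the fibrocystin gene Pkhd1 (1.24), mutated in recessive polycystic liver and kidney disease, were separated too. Sox9, a transcription factor of the duct lineage that is also found in some hepatocytes or progenitors, was separated by only 0.37. Elf3, Krt23 and Cldn4 overlapped between classes.

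Genes of ion and fluid transport were higher in part. Of 12 of 15 genes of biliary transport and secretion that passed the filter, 6 were separated and higher and none lower, with a median of 0.50. Cftr, the apical chloride channel, was at 1.84, 2.77 and 1.8 CPM in duct-high and 0.248, 0.297, 0.483 and 0.587 CPM in duct-low libraries, a difference of 2.32. Slc5a1, which takes up glucose with sodium, differed by 2.03, and Ano1, a calcium-gated chloride channel, by 1.03. Car2, a carbonic anhydrase, differed by 0.47. The bile acid carrier Slc10a2 (-0.68) and the water channel Aqp1 (-0.31) did not separate.

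Foxj1 and Cfap44 were among the 10 highest genes, and 2 lists of ciliary genes were drawn up after that was seen. Foxj1, the master transcription factor of motile cilia, was at 3.83, 5.41 and 4.76 CPM in duct-high and 0.538, 0.572, 0.909 and 1.07 CPM in duct-low libraries (2.57). Cfap44, a protein of the ciliary axoneme, was at 0.983, 0.862 and 1.2 CPM in duct-high and 0.104, 0.0458, 0.0852 and 0.391 CPM in duct-low libraries. Cfap44 passed the filter through the duct-high libraries and had few counts in the duct-low ones, so the size of its difference is uncertain. Of 18 of 30 motile cilium genes that passed the filter, 7 were separated and higher, among them the dynein heavy chains Dnah5 (1.43) and Dnah11 (1.75), while Cfap43 (-0.87) and Rfx2 (-0.22) had differences below 0 and overlapped. The median of the 18 was 0.18, and without Foxj1 and Cfap44 5 of 16 were separated and higher, at a median of 0.10. The motile cilium genes summed to 21.8, 27 and 24.5 CPM in duct-high and 23.9, 22, 20.8 and 16.8 CPM in duct-low libraries, which overlapped. Of 20 primary cilium genes, 7 were separated and higher, with a median of 0.23. Kif3a, a motor of ciliary transport, differed by 0.46.

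Mmp7, a secreted metalloprotease (matrilysin) that epithelial cells make, had the largest difference of the named genes. Its level was 4.05, 7.46 and 9.38 CPM in duct-high and 0.663, 0.343, 1.02 and 2.5 CPM in duct-low libraries, a difference of 2.83. Every duct-high library exceeded the duct-low libraries, of which C18:1 replicate 4 was the highest. The other genes at this end were Ccdc198, Plekhs1, Cd200l1, Scube3 and Clic6, with differences between 2.60 and 2.75, and Cd200l1 overlaps another gene in the annotation.

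The promoters of genes that mark the ends of the contrast are these: Krt7 and Epcam, on which the libraries were chosen, Mmp7, the highest, and Itgb6, an integrin described below, and Marco, the lowest. Each is the 250 bases before to 50 bases after a RefSeq start site in GRCm38.p6, written 5′ to 3′ on the strand of the gene. For Mmp7 and Itgb6, which have 2 RefSeq start sites each, the first on the gene is shown. Capitals mark TGANTCA (the AP-1 motif) and TATAAA (the TATA box) in Mmp7.
Krt7 promoter, chr15:101412153-101412452, plus strand: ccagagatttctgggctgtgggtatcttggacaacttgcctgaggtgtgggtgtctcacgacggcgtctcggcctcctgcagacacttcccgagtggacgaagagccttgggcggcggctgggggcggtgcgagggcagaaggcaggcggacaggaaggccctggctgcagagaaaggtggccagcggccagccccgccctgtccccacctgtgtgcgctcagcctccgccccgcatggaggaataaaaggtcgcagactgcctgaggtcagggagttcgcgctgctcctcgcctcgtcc
Epcam promoter, chr17:87635729-87636028, plus strand: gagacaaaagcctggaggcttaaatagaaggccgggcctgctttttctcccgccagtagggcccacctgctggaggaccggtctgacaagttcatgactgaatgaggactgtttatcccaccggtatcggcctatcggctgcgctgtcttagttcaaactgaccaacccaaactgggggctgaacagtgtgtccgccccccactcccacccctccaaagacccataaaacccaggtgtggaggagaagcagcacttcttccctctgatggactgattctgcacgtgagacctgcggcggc
Mmp7 promoter, chr9:7691840-7692139, plus strand: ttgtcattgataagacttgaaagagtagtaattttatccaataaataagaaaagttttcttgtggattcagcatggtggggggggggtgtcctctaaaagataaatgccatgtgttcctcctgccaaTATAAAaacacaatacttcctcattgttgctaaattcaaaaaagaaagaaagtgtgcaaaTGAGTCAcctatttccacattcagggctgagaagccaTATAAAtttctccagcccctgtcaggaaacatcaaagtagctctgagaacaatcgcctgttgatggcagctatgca
Itgb6 promoter, chr2:60722554-60722853, minus strand: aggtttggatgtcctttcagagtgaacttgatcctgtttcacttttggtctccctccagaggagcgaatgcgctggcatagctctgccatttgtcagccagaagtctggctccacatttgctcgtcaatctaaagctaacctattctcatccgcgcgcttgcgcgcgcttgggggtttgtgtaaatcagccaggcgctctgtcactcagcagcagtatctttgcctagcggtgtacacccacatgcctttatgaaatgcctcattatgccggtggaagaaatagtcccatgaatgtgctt
Marco promoter, chr1:120504975-120505274, minus strand: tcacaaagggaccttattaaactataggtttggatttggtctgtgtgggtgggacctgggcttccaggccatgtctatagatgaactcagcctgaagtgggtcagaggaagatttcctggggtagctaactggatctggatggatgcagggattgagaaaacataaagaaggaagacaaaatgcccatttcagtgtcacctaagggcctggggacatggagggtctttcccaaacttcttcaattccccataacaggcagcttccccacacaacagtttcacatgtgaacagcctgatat
Both strands were searched for these motifs and for GGAATG, the TEAD motif, and GTTAAT, a core of the HNF1 motif, and no matches overlapped. In Mmp7, TGANTCA starts 63 bases and TATAAA starts 123 and 26 bases before the start site shown. The window of the other Mmp7 start site (chr9:7692091-7692390) held no match. The window of the other Itgb6 start site (chr2:60673644-60673943), which lies inside the gene, held GTTAAT 173 bases before that site. No match was found in these windows of Krt7, Epcam, Itgb6 and Marco, which says only that these letters are not there. Over 32851 RefSeq mouse promoters of the same length, 7.81% hold TGANTCA, 13.6% TATAAA, 14.7% GGAATG and 7.1% GTTAAT.

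Genes of Notch and Hippo signalling, which direct duct formation, were mixed. Of 23 names listed, 20 were found among the deposited genes, and all 20 passed the filter. Of these, 5 were separated and higher and 1 lower, with a median of 0.37. Jag1, the Notch ligand of the portal tract, was at 13.9, 12 and 17.3 CPM in duct-high and 7.64, 5.97, 7.44 and 9.09 CPM in duct-low libraries (0.93). Sox4, a transcription factor of duct development, differed by 1.41 and Ankrd1, a target of YAP, by 2.00. Yap1 itself was slightly lower, at 70.2, 69.6 and 72 CPM in duct-high and 80.3, 84, 78.4 and 72.4 CPM in duct-low libraries (-0.16), and the receptors Notch1, Notch2 and Notch3 overlapped between classes.

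Among epithelial junction genes and keratins, 8 of the 21 of 22 that passed the filter were separated and higher and none lower. Grhl2 (2.34) and Esrp1 (2.02) control epithelial transcription and splicing. Itgb4 (1.63) encodes an integrin chain that anchors epithelium to its basement membrane. Krt8 (0.09) and Krt18 (-0.01), keratins that hepatocytes share with duct cells, overlapped, and Cdh1, or E-cadherin, which hepatocytes also carry, was at 49.4, 55.3 and 46.1 CPM in duct-high and 25.2, 13.5, 17.6 and 43.8 CPM in duct-low libraries. C18:1 replicate 4 was again close to the duct-high class in Cdh1.

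Fibrosis genes were higher along with the duct genes, in ligands, collagens and remodelling enzymes but not in Acta2. Of 27 of 29 profibrogenic ligands and receptors that passed the filter, 13 were separated and higher and none lower, with a median of 0.52. Itgb6 encodes the β6 chain of an epithelial integrin that activates latent TGF-β, and its promoter is among those above. Its level was 1.74, 1.95 and 2.01 CPM in duct-high and 0.373, 0.114, 0.313 and 0.717 CPM in duct-low libraries (2.40). Itgb8, the chain of another TGF-β activating integrin, differed by 2.21. The classes did not overlap in either gene. Tgfb2 was at 2.76, 2.69 and 2.12 CPM in duct-high and 0.828, 1.01, 0.398 and 1.11 CPM in duct-low libraries (1.62), whereas the difference of Tgfb1 was 0.02 and its values overlapped. Pdgfd (1.40) and its receptor Pdgfrb (1.00), which drive stellate cell growth, were both separated and higher.

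Collagens followed. Of 22 of 22 that passed the filter, 14 were separated and higher and none lower, with a median difference of 0.99, at 0.83 within MASH and 0.94 within C18:1. Col1a1, a chain of the main scar collagen, was at 95.1, 143 and 104 CPM in duct-high, 25.3, 48.8, 41.8 and 79.8 CPM in duct-low, 42.9, 20.0 and 38.5 CPM in C18:1-leucine and 3.05, 2.05, 1.86 and 3.97 CPM in chow libraries. The classes were separated, but C18:1 replicate 4 came near the lowest duct-high library and all MASH diet libraries exceeded chow. Col6a3, of the microfibrillar collagen VI, was at 74.5, 121 and 96.8 CPM in duct-high and 25.8, 33.7, 30.7 and 59.7 CPM in duct-low libraries (1.43). Col4a3 (1.86; it overlaps another gene) and Col4a4 (1.80), basement membrane chains found in few cell types, had the largest differences among collagens. The common basement membrane chains Col4a1 (0.39) and Col4a2 (0.51) overlapped between classes. Of the 22, 17 were above chow in every duct-high library and 15 in every duct-low library, beside the 29.4% and 21.7% of all genes. Below chow in every library were 2 collagens in duct-high and 3 in duct-low libraries.

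Of 31 of 32 matrix glycoproteins and crosslinking enzymes that passed the filter, 18 were separated and higher and none lower, with a median of 0.79. Loxl1, which crosslinks elastin, was at 12.6, 20.4 and 17.4 CPM in duct-high and 4.0, 6.34, 4.74 and 8.91 CPM in duct-low libraries. Lum, a proteoglycan that orders collagen fibrils, was at 41.7, 50.9 and 45.6 CPM in duct-high and 15.5, 16.1, 15 and 33.7 CPM in duct-low libraries. Both were separated, by 1.52 and 1.28, while Fn1 (-0.18), Postn (0.19) and Tnc (0.07) overlapped. Of 23 proteases and inhibitors, 12 were separated and higher and none lower. Mmp2, a gelatinase of stromal cells, was at 17.2, 24.3 and 21.9 CPM in duct-high and 5.51, 5.79, 4.66 and 11.6 CPM in duct-low libraries (1.69). Timp1, an inhibitor of metalloproteases whose locus overlaps another gene, differed by 1.08, and the macrophage and neutrophil proteases Mmp12 (-0.03), Mmp13 (-0.33), Mmp8 (0.02) and Mmp9 (-0.34) overlapped.

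**Figure D2:**
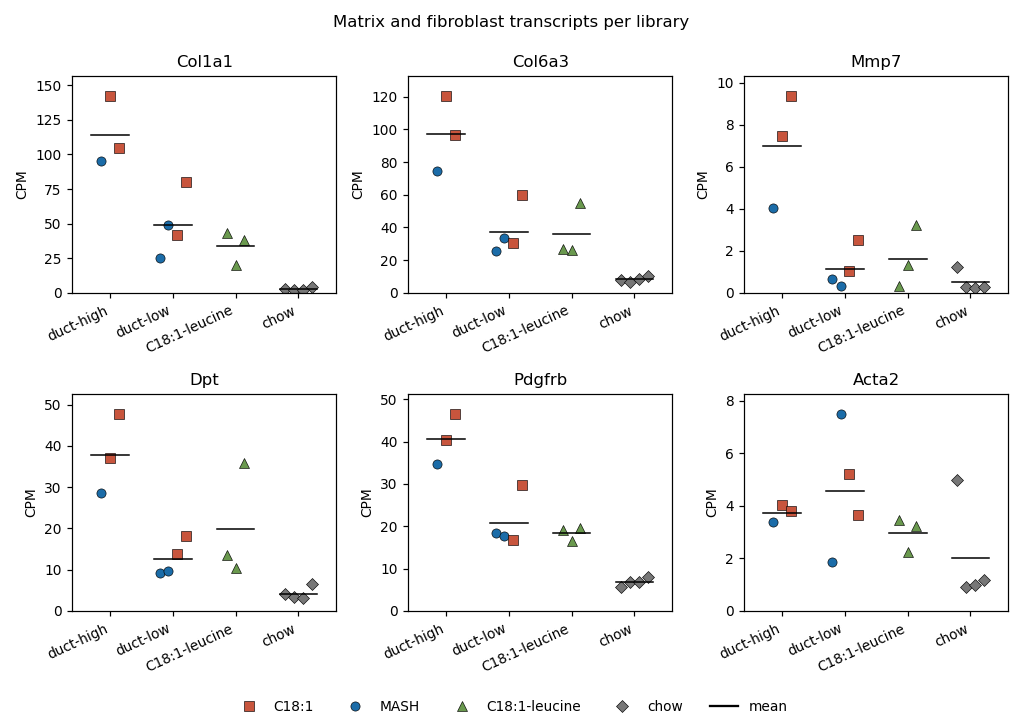
Level in CPM (y axis) of 6 matrix and fibroblast genes in each of 14 libraries; each symbol is 1 library, its shape gives the title group and the bar is the mean of a column. Col1a1, Col6a3, Mmp7, Dpt and Pdgfrb are separated between duct-high and duct-low libraries, and Acta2 overlaps.

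The stromal markers did not move alike. Acta2, the smooth muscle actin of contractile myofibroblasts, was at 3.38, 4.01 and 3.79 CPM in duct-high and 1.86, 7.51, 5.2 and 3.63 CPM in duct-low libraries, with a difference of -0.12. The duct-low libraries held both the lowest and the highest of these values. Of 9 of 14 myofibroblast markers that passed the filter, 3 were separated and higher and none lower, at a median of 0.21, and they were Pdgfrb, Itga11 (1.48) and Cdh11 (1.84). That median was 0.01 without MASH replicate 2 and 0.32 without MASH replicate 3. Of 10 of 11 portal fibroblast markers that passed the filter, 7 were separated and higher and none lower, at a median of 1.04. Dpt, or dermatopontin, which binds collagen, was at 28.5, 37 and 47.8 CPM in duct-high, 9.09, 9.72, 13.7 and 18.1 CPM in duct-low, 13.5, 10.3 and 35.7 CPM in C18:1-leucine and 3.97, 3.41, 3.02 and 6.42 CPM in chow libraries. Gsn, which severs actin filaments, was at 96.4, 104 and 149 CPM in duct-high and 37.7, 35.9, 40.8 and 60.0 CPM in duct-low libraries. Both were separated, Dpt by 1.60, and C18:1-leucine replicate 4 was the highest of its group in both.

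Of 13 quiescent stellate cell markers, 3 were separated and higher and 1 lower, beside 9.60% and 8.52% of all genes. Cygb, a globin of stellate cells whose locus overlaps another gene, differed by 1.15 and Colec10, a collectin, by -0.60. Smooth muscle genes were split, with 3 of 7 separated and higher and 2 lower, Cnn1 (-1.51) and Actg2 (-0.63). Of 7 of 8 mesothelium markers, which mark the liver surface, 3 were separated and higher, at a median of 1.65. They summed to 19.2, 20.6 and 30.1 CPM in duct-high and 12.8, 15.5, 16.2 and 13.2 CPM in duct-low libraries, and their part in the matrix differences was not tested.

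**Figure D3:**
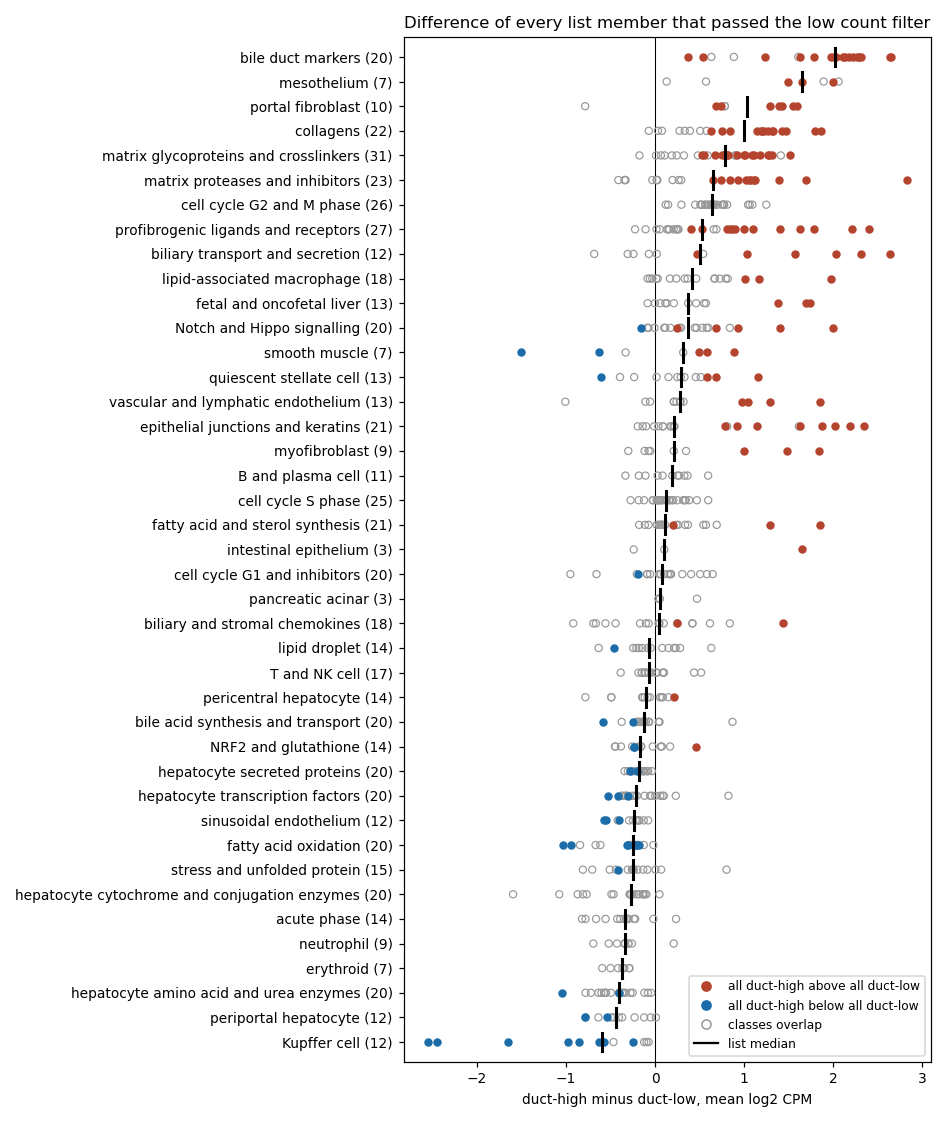
Difference of mean log2 CPM, duct-high minus duct-low (x axis), of each member of 41 gene lists that passed the low count filter (rows, with the number of such members); filled symbols are separated genes and bars are list medians. Bile duct markers, a list that holds the 3 genes on which the classes were chosen, have the highest median at 2.02 (1.97 without those genes), and Kupffer cell markers the lowest at -0.60.

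Genes of G2 and mitosis leaned to the duct-high class without separating it. None of 26 of 26 such genes was separated in either direction, although all 26 had a positive difference, with a median of 0.64. Mki67, a protein of dividing cells, was at 20.0, 17.1 and 9.29 CPM in duct-high and 6.87, 8.24, 8.21 and 15.6 CPM in duct-low libraries. The 26 genes summed to 118, 93.9 and 49.9 CPM in duct-high, 44.5, 40.7, 52.5 and 85.6 CPM in duct-low, 28.4, 27.5 and 49.5 CPM in C18:1-leucine and 19.8, 20.2, 17.7 and 16.8 CPM in chow libraries. C18:1 replicate 3, the duct-high library with the highest Krt7 and Krt19, lay within the duct-low range, and C18:1 replicate 4, a duct-low library, lay above it in all 26 genes. MASH replicate 4 and C18:1 replicate 1 both exceeded every duct-low library in 19 of the 26. The median within the title groups was 1.47 in MASH and 0.06 in C18:1. Over all 7 libraries it was 0.38 without MASH replicate 4 and 1.01 without C18:1 replicate 3. Of the 26 genes, 25 were above chow in every duct-high library and 21 in every duct-low library. Over all genes these shares were 29.4% and 21.7%.

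DNA replication genes showed less. None of 25 S phase genes was separated, at a median of 0.12 (0.05 without MASH replicate 2 and 0.19 without MASH replicate 3), and they summed to 198, 197 and 178 CPM in duct-high and 157, 201, 179 and 175 CPM in duct-low libraries. Those sums overlapped. Of 20 genes of G1 and cell cycle arrest, 1 was separated and lower, beside 8.52% of all genes. It was the cyclin Ccnd3 (-0.20), whose locus overlaps another gene. The arrest gene Cdkn1a (-0.95) overlapped between classes.

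Hepatocyte genes had mostly small differences below 0. Of the 80 genes in 4 hepatocyte lists, 73 (91.2%) had a difference below 0, against 53.9% of all genes kept, while 7 were separated and lower and none higher. The 7 of 80 are close to the 8.52% of all genes that were separated and lower, and the same share applies to the counts of single lists that follow. Alb, the main plasma protein, was at 36065, 28825 and 29571 CPM in duct-high and 40092, 36844, 31687 and 29859 CPM in duct-low libraries, a difference of -0.13 with overlapping classes. Hnf4a, the transcription factor that holds hepatocyte identity and whose locus overlaps an antisense gene, was at 529.9, 486 and 555 CPM in duct-high, 842, 823, 739.8 and 622 CPM in duct-low and 1264, 1076, 1281 and 1214 CPM in chow libraries. It was separated, with a difference of -0.52, and both classes were below chow. The medians of the 4 lists, in the order secreted proteins, transcription factors, amino acid and urea enzymes, and cytochrome and conjugation enzymes, were -0.18, -0.22, -0.41 and -0.27. Without C18:1 replicate 1 the first 3 were -0.08, -0.10 and -0.205, and without C18:1 replicate 3 the amino acid median was -0.65. Without MASH replicate 4 the cytochrome median was -0.50. With scaling by library totals only, the median of all genes was 0.10 and not -0.02. The size of these small medians therefore depends in part on the scaling.

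Of 20 secreted protein genes, 2 were separated and lower, Serpina1a (-0.28), 1 of a family of near-identical copies, and Rbp4 (-0.20). Without C18:1 replicate 1 these were -0.17 and -0.11. Of 20 hepatocyte transcription factors, Hnf4a, Cebpb (-0.42; its locus overlaps another gene) and Rxra (-0.31) were separated and lower. Of 20 amino acid and urea enzymes, Tat (-1.04), which breaks down tyrosine, and Nags (-0.41), which makes the activator of the urea cycle, were separated and lower. Tat was at 559, 353 and 545 CPM in duct-high and 659, 1052, 1640.2 and 813 CPM in duct-low libraries, with C18:1 replicate 2 well above the rest. None of 20 cytochrome and conjugation enzymes was separated. Outside that list, Cyp2b10, a xenobiotic-induced cytochrome of a near-identical family, was at 0.696, 0.321 and 1.2 CPM in duct-high and 1.97, 27.9, 1.93 and 1.33 CPM in duct-low libraries, where MASH replicate 3 held the high value. Mfsd2a, which takes up lysophospholipids, was at 54.4, 52.2 and 102 CPM in duct-high, 210.4, 155, 208 and 143 CPM in duct-low and 88.2, 76.2, 129.5 and 122 CPM in chow libraries (-1.42). Every duct-low library was above chow for Mfsd2a, and MASH replicate 4 and C18:1 replicate 1 were below it. Acnat2 (-1.39), Capn8 (-1.55, and -0.99 without MASH replicate 4) and Gbp2b (-2.13; a near-identical copy exists) completed the lowest 10.

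Among zonal genes, Pck1, the gluconeogenic enzyme of periportal hepatocytes, was at 1757, 1419 and 2118 CPM in duct-high and 3122, 3110.3, 3326 and 2521 CPM in duct-low libraries (-0.79). It was 1 of 2 separated and lower genes among 12 periportal markers, the other being Ctsc. Among 14 pericentral markers only Gulo was separated, at 0.21. Of 20 bile acid genes, Cyp7b1, of the alternative synthesis pathway, was separated at -0.58 (-0.35 without C18:1 replicate 3), and Fgfr4, the receptor that restrains synthesis, at -0.25 (-0.17 without C18:1 replicate 1). Cyp7a1, the rate-limiting enzyme of the classic pathway, had a difference of 0.87 with overlapping classes.

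Fatty acid oxidation held more separated genes than the other hepatocyte lists. Of 20 genes, 8 were separated and lower and none higher, at a median of -0.25. Ehhadh, of peroxisomal oxidation, was at 664, 527 and 806 CPM in duct-high and 2389, 1036, 949.6 and 1079 CPM in duct-low libraries (-0.94). Acadm, of mitochondrial oxidation, was at 445, 409.5 and 521 CPM in duct-high and 614, 598, 526 and 523 CPM in duct-low libraries (-0.31). MASH replicate 2 held the highest values of both genes, far above the others for Ehhadh. Acot1 differed by -1.03, in a family of near-identical copies, and by -0.66 without MASH replicate 2. Ppara, the receptor that controls these genes, was at 114, 126 and 126 CPM in duct-high and 133, 151, 139.7 and 92.5 CPM in duct-low libraries, and the classes overlapped.

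**Figure D4:**
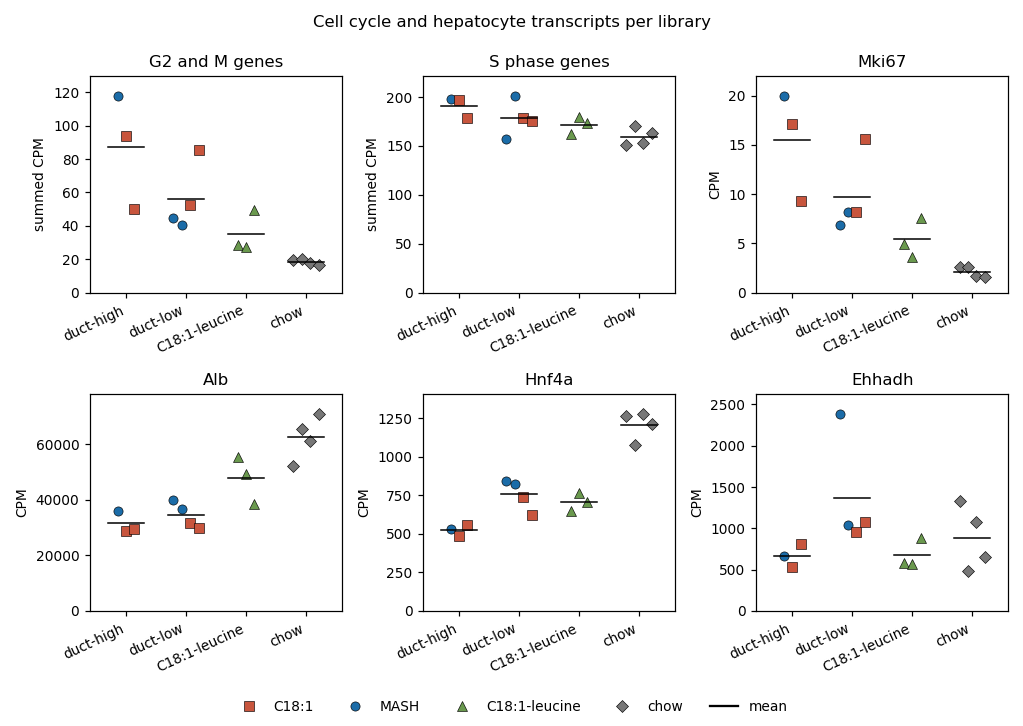
Summed CPM of 2 cell cycle lists and CPM of 4 genes (y axes) in each of 14 libraries; each symbol is 1 library, its shape gives the title group and the bar is the mean of a column. The G2 and M sum of C18:1 replicate 3 lies among the duct-low libraries, and Hnf4a and Ehhadh are lower in each duct-high library than in each duct-low library.

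Kupffer cell genes had the lowest median of all lists, at -0.60, with 8 of 12 separated and lower and none higher. Marco, a scavenger receptor of resident macrophages, was at 4.34, 2.75 and 8.63 CPM in duct-high, 25.3, 33.6, 54.7 and 12.7 CPM in duct-low, 29.9, 10.9 and 1.52 CPM in C18:1-leucine and 29.8, 13.9, 13 and 13.4 CPM in chow libraries. Cd163, which takes up haemoglobin, was at 4.46, 2.85 and 6.58 CPM in duct-high, 24.3, 32.2, 33.9 and 12.6 CPM in duct-low, 40.3, 27.2 and 1.88 CPM in C18:1-leucine and 48.4, 63, 39.8 and 47.1 CPM in chow libraries. Their differences were -2.55 and -2.45, the lowest of the named genes, and C18:1-leucine replicate 4 had the lowest values of all 14 libraries. Timd4, the receptor for dying cells on long-resident Kupffer cells, was at 1.86, 1.64 and 1.8 CPM in duct-high and 6.07, 4.92, 9.38 and 3.65 CPM in duct-low libraries. Clec4f, a lectin found in mouse on Kupffer cells, was at 111, 86.1 and 91.9 CPM in duct-high and 214, 153, 213 and 182 CPM in duct-low libraries. Timd4, Clec4f, Folr2 and Vsig4 differed by -1.65, -0.98, -0.86 and -0.63. Of 12 markers, 4 had every duct-high library below every chow library, and 6 had every duct-low library above every chow library. Over all genes these shares were 26.9% and 21.7%. Cd300e, a receptor of myeloid cells, and Ms4a8a, in a family of near-identical copies, were also at the low end, at -1.74 and -1.70.

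Markers of lipid-associated macrophages, the scar-associated cells of fatty liver, moved the other way in part. Of 18 genes, 3 were separated and higher, and none lower, at a median of 0.41, beside 9.60% of all genes separated and higher. The 3 were Spp1, Cx3cr1 and Ms4a7, and the median was 0.69 within MASH and 0.13 within C18:1. Spp1, or osteopontin, which duct cells make as well, was at 336, 392 and 348 CPM in duct-high and 64.9, 79.7, 111 and 122 CPM in duct-low libraries (1.97). The list of bile duct markers holds Spp1 too, and without it those markers summed to 153, 182 and 173 CPM in duct-high and 56.2, 50.3, 57.6 and 80.2 CPM in duct-low libraries. Cx3cr1, the fractalkine receptor of monocyte-derived macrophages, was at 14.8, 18.8 and 17 CPM in duct-high and 4.99, 6.13, 7.05 and 14.5 CPM in duct-low libraries, the top duct-low library being C18:1 replicate 4. Its ligand Cx3cl1 was separated by 1.44 and Ms4a7, a gene of recruited macrophages, by 1.01. Trem2 (0.82), Gpnmb (0.72) and Cd68 (0.01) overlapped. Ccl2, which recruits monocytes, was at 4.05, 4.57 and 3.02 CPM in duct-high and 2.69, 3.78, 3.89 and 4.7 CPM in duct-low libraries, and its values overlapped. Several loci overlap other genes in the annotation, Spp1 and Cx3cr1 among them, and no label says which strand was counted.

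**Figure D5:**
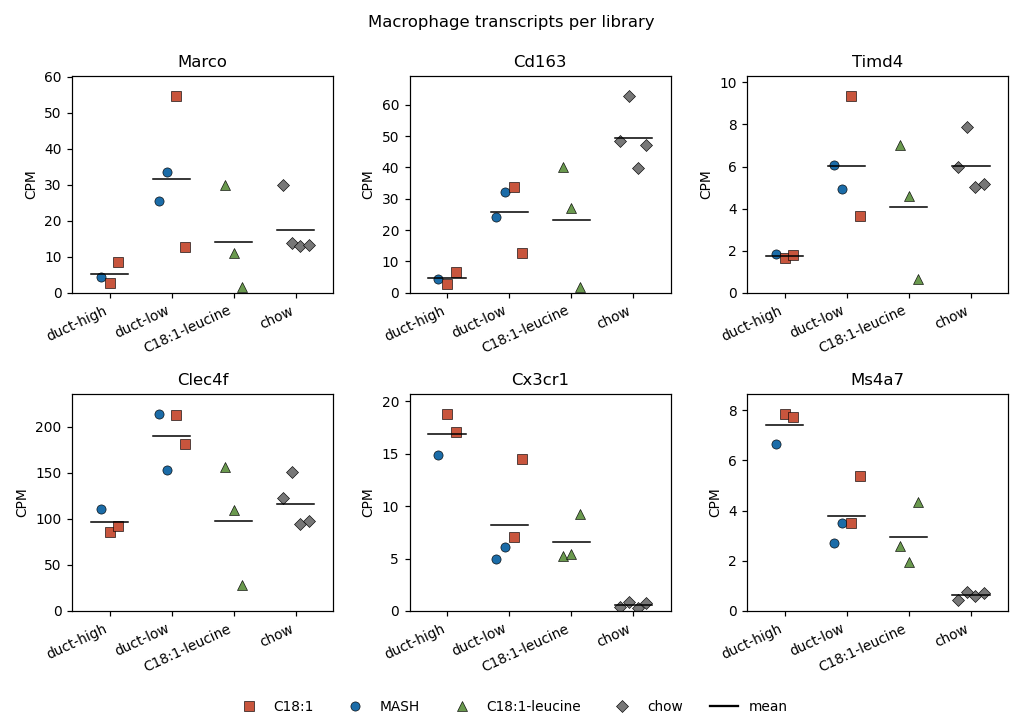
Level in CPM (y axis) of 4 Kupffer cell genes and 2 genes of recruited macrophages in each of 14 libraries; each symbol is 1 library, its shape gives the title group and the bar is the mean of a column. Marco, Cd163, Timd4 and Clec4f are lower and Cx3cr1 and Ms4a7 higher in duct-high than in duct-low libraries, and C18:1-leucine replicate 4 is the lowest of all libraries for the first 4.

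The C18:1-leucine libraries took no part in the choice. After their marker values were seen, replicate 4 was set beside replicates 1 and 2 over the same genes, as values without a test. Of the 583 genes separated and higher in duct-high libraries, 512 (87.8%) had their highest C18:1-leucine value in replicate 4, as did 37.3% of all 15674 genes. Of the 47 separated and lower genes, 26 (55.3%) had their lowest value there, as did 35.4% of all genes. By list, replicate 4 was the highest of the 3 in 18 of 20 bile duct markers, 24 of 26 G2 and M genes and 12 of 22 collagens, and the lowest in 10 of 12 Kupffer cell markers. For Col1a1 replicate 1 was the highest. Matrix glycoproteins and crosslinkers were highest in replicate 4 in 22 of 31 genes. Fatty acid oxidation genes, of which 8 were separated and lower in duct-high libraries, were highest there in 15 of 20.

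Markers of pancreas and intestine overlapped between the classes in sum, whereas those of mesothelium, given above, did not. Only 3 of 13 pancreatic acinar genes passed the filter, with sums of 5.85, 7.6 and 5.79 CPM in duct-high and 3.73, 4.28, 4.74 and 6.07 CPM in duct-low libraries, and those sums overlapped. Of 10 intestinal epithelium genes 3 passed, and the defining factors Cdx1 and Cdx2 had 0 counts in the 7 libraries. The 3 summed to 201, 148 and 159 CPM in duct-high and 197, 167, 161 and 131 CPM in duct-low libraries. Vil1, which bile duct cells also carry, was the intestinal gene separated and higher (1.65). The labels do not say which lobe or how much of the liver hilum went into each library, and the part of sampling in these differences was not tested.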

How the data were processed

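The deposited values are expected counts by Ensembl gene and library, 5.09% to 5.76% of them fractional, and were rounded to whole numbers. Per the labels' protocols, RNA came from RNeasy kits and was prepared with NEBNext Ultra II chemistry. HTSeq, DESeq2 1.42.1 and the build GRCm38 are named per the submitters' processing notes, without their roles. The authors' deposited tables of comparisons were not used.

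Genes were kept by edgeR's filterByExpr on the title groups (minimum count 10, minimum total 15), which left 15674 of 45706. Counts were scaled by TMM (edgeR 4.0.16, R 4.3.3), and log2 CPM used a prior count of 2. Differences are duct-high minus duct-low means (Python 3.11.15, pandas 2.3.3, numpy 2.4.6), tested on simulated data with known folds. Without a test, precision is shown by the spread of 3 and 4 libraries. Symbols came from the deposited table and GENCODE M21, which held 45143 of the identifiers. Promoters are from RefSeq (GRCm38.p6).

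Members, 41 gene lists and settings were chosen with earlier results of these data known, and 2 cilium lists and the settings by treatment tag after the values were seen. Named genes were the markers, 7 fixed genes, the 10 highest and 10 lowest separated genes of at least 1 CPM in the higher class, and up to 6 separated genes per list. Other genes given by difference alone were chosen after their values were seen. Alternatives were DESeq2 1.42.0 size factors, library totals, no filter, a prior count of 0.5, each title group alone, libraries of 1 tag alone, each library left out and a 1.5-fold minimum.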

Additional observations from a re-analysis of the deposited data

Results flagged for a closer look

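Libraries were compared within each title group of 4 over the summed CPM of the gene lists, 86 sets of values in all. Chance marks about 1 in 20 of such sets, and the number marked is about what that rate gives. In the C18:1 group, replicate 2, a duct-low library, stood far from the other 3 in neutrophil genes (28.2 CPM, the others 13.8 to 14.7), in sinusoidal endothelium genes (692 CPM, the others 545 to 564) and in erythroid genes (752 CPM, the others 264 to 319). In the chow group, replicate 2 stood apart in pancreatic acinar genes, at 97.8 CPM against 5.46 to 7.31 CPM in the others. Chow replicate 1 stood apart in genes of stress and unfolded protein, at 7765 CPM against 2601 to 3351 CPM in the others. Title groups of 3 were not compared in this way, and they held larger values. Pancreatic acinar genes summed to 4.66, 339 and 5.52 CPM in C18:1-leucine replicates 1, 2 and 4. Neutrophil genes summed to 64.1, 5.71 and 5.99 CPM in the same libraries.

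The summed CPM of motile cilium genes differed in sign between the title groups, at -1.08 duct-high minus duct-low in MASH and 6.92 in C18:1, and this difference was not tested. In C18:1-leucine replicate 4, which took no part in the choice of libraries, Krt7, Krt19 and Epcam summed to 16.3 CPM, against 7.22 CPM in the highest chow library. Bile duct markers summed to 289.9 CPM there, against 88.2 CPM in the highest chow library.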

How the results depend on the processing

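The labels give no pairing of libraries, so no paired analysis was made, and the differences come from no test. The count of genes separated and 2-fold higher, 583 in all 7 libraries, was 875 in MASH alone, 984 in the libraries tagged with the diet alone and 990 with a 1.5-fold minimum, and leaving out each library gave 556 to 796. The count 2-fold lower, 47, was 30 with library totals only, 213 in MASH alone, 87 in C18:1 alone, 152 in the libraries tagged with the diet, 234 in those tagged with C18:1 and 127 with a 1.5-fold minimum. Leaving out each library gave 50 to 103, with 80 without C18:1 replicate 1, 103 without C18:1 replicate 3 and 80 without C18:1 replicate 4. Fewer libraries make separation easier by construction. The G2 and M median, 0.64, was 1.47 in MASH alone, 1.30 in the libraries tagged with the diet and -0.44 in those tagged with C18:1, and 0.38 to 1.01 with each library left out (lowest without MASH replicate 4, highest without C18:1 replicate 3). The secreted protein median, -0.18, was 0.067 in the libraries tagged with C18:1 and -0.27 to -0.08 with each library left out. The cause was not tested. Leaving out each library gave medians of 1.89 to 2.21 for bile duct markers, 0.82 to 1.08 for collagens, 0.01 to 0.32 for myofibroblast markers and -0.50 to -0.19 for cytochrome and conjugation enzymes. Of the 1980 values of named genes under these alternatives, 1878 moved by less than 1 SD within a class and 102 by more. Among them 0 values of separated genes changed sign. For list medians 604 of 645 moved by less and 39 by more. Another 2 changed sign, counted only for the bile duct, collagen, myofibroblast, G2 and M, secreted protein and cytochrome lists. Medians of other lists changed sign too, such as T and NK cell genes (-0.47 to 0.18 with each library left out). With library totals only, the median of all genes was 0.10 and not -0.02. Genes under 1 CPM rest on few counts.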

Other observations

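Cholesterol synthesis genes were higher in the duct-high class yet far below chow. Sqle, the squalene epoxidase, was at 4.71, 6.52 and 4.39 CPM in duct-high, 1.18, 1.1, 1.14 and 2.48 CPM in duct-low and 40.1, 53.2, 40.1 and 105 CPM in chow libraries. Idi1, an isomerase earlier in the pathway, was at 20.2, 20.5 and 10.1 CPM in duct-high, 6.65, 6.02, 6.7 and 7.0 CPM in duct-low and 102, 127, 91 and 237 CPM in chow libraries. Both separated the classes, by 1.85 and 1.28, as did the regulator Srebf2 by 0.20, while the other 18 of the 21 genes of fatty acid and sterol synthesis overlapped. Of 13 of 20 fetal and oncofetal genes that passed the filter, 3 were separated and higher. Gpc3, a surface proteoglycan of fetal liver, was at 1.99, 1.48 and 1.2 CPM in duct-high and 0.704, 0.618, 0.0852 and 0.804 CPM in duct-low libraries (1.69, and 1.07 without C18:1 replicate 2), and the imprinted H19 differed by 1.38. Afp (0.37) overlapped.

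Of 12 sinusoidal endothelium genes, 12 had a difference below 0, and 3 were separated and lower and none higher. Dnase1l3 (-0.57), Clec4g (-0.55) and Mrc1 (-0.40) were the 3. Beside the counts of this paragraph, 8.52% of all genes were separated and lower and 9.60% higher. Of 13 of 15 vascular and lymphatic endothelium genes that passed the filter, 4 were separated and higher, among them Pdpn (1.86) and the arterial connexin Gja5 (1.05), which overlaps another gene. No gene was separated in either direction among 9 of 12 neutrophil, 17 T and NK cell and 11 of 12 B and plasma cell genes that passed the filter, nor among 14 acute phase genes. Acute phase genes summed to 6935, 6471 and 20475 CPM in duct-high and 7902, 25632, 14675 and 7596 CPM in duct-low libraries, a spread within each class larger than the gap between them. The antioxidant enzymes Gsr (-0.24) and Txnrd1 (-0.24) were separated and lower and Mgst3 (0.45) higher among 14 genes of NRF2 and glutathione.
Of 14 of 15 lipid droplet genes that passed the filter, Hilpda, an inhibitor of fat breakdown, was separated and lower (-0.46). Of 18 of 21 chemokine and adhesion genes, Cx3cl1 and Csf1 (0.25), the growth factor of macrophages, were separated and higher. Among 15 genes of stress and unfolded protein Dnajb9, a chaperone of the endoplasmic reticulum, was separated and lower (-0.42), and none of 7 erythroid genes was separated. The counts of separated lipid droplet, chemokine and stress genes are near the shares of all genes, 8.52% lower and 9.60% higher. They are no result about those lists.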
